A study of Schizosaccharomyces pombe with 6 samples.

Results

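The genes described here are the protein-coding genes of fission yeast (Schizosaccharomyces pombe) whose names consist of *prp* or *cwf* and a number. The names come from the gene table deposited with the counts, and 41 of its 5126 protein-coding IDs met this rule, 19 named *prp* and 22 named *cwf*. All 41 passed the filter on low counts. Both names belong to the spliceosome: *prp* genes were named for mutants in pre-mRNA processing, and *cwf* genes for proteins that copurify with the splicing factor Cdc5. Poly(A)+ RNA was sequenced from 3 biological replicates of *spx1*Δ cells (*h+ spx1Δ::kanMX*, strain BS53) and 3 of wild-type cells (*h+*, strain AGP73), all grown vegetatively to log phase at 30°C in YES, a rich medium. In the *spx1*Δ strain, the study's methods state that a *kanMX* cassette replaced the open reading frame of *spx1*, which encodes a protein with an inositol pyrophosphate-binding SPX domain and a RING finger. The study's list of constructed strains, which includes BS53, gives *leu1-32*, *ura4-D18* and *his3-D1* as shared markers, with either *ade6-m216* or *ade6-m210*; the markers of AGP73 are not given there. Each group is 1 strain, so any other difference between the strains cannot be told apart from the deletion.

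The spliceosome removes introns from pre-mRNA in a pair of chemical steps. It assembles from small nuclear ribonucleoproteins (snRNPs): the U1 snRNP binds the 5′ splice site, the U2 snRNP binds the branch site, and the tri-snRNP of U4/U6 and U5 then joins. RNA helicases and the Prp19 complex, which in fission yeast is built around Cdc5 and Prp19, rearrange these parts into the catalytic form and later take it apart. Many fission yeast genes carry short introns, and fission yeast genetics supplied many of the *prp* and *cwf* names. Reads were counted over exons, so the values below give RNA levels of the splicing genes and do not measure splicing.

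Counts summed to 20929960 to 24696086 in the *spx1*Δ libraries and to 11539278 to 15282140 in the wild-type libraries, so every *spx1*Δ library was the deeper. The targeted gene, *spx1* (SPAC6B12.07c), had normalized counts of 2163, 2185 and 2062 in *spx1*Δ cells, against 5436, 5290.4 and 5153 in wild-type cells (log2 fold change -1.31, SE 0.05, adjusted p = 0.000107, edgeR), so counts remained over the annotated gene. The *spx1*Δ libraries were uneven: for replicates 1, 2 and 3, the 41 *prp* and *cwf* genes lay at a median distance from wild type of 0.10, 0.33 and 0.23 on the log2 scale, and all 6127 IDs tested at one of 0.21, 0.44 and 0.39. Values below are normalized counts, that is, counts divided by the TMM-scaled library size and multiplied by its mean, and they are listed for replicates 1, 2 and 3 in that order. Changes are log2 fold changes of *spx1*Δ over wild type with a standard error (SE), and a gene is called higher or lower at an adjusted p of at most 0.05 from edgeR's quasi-likelihood test over all 6127 IDs. A lower count in RNA from a culture cannot tell fewer cells with the transcript from less RNA per cell.

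As a group, the *prp* and *cwf* genes changed little and in both directions. Of the 41 genes, 8 were higher in *spx1*Δ cells (19.5%), 10 were lower (24.4%) and 23 did not pass. Of all 4986 protein-coding genes tested, 21.2% were higher and 30.2% were lower. The share of higher *prp* and *cwf* genes was below that of coding genes here, but above it by DESeq2 (24.4% against 22.3%), with library size alone (26.8% against 23.8%), with only coding genes in the fit (29.3% against 26.0%) and with *spx1*Δ replicate 1 left out (34.1% against 30.2%). Over all 6127 IDs, noncoding RNAs included, 27.6% were higher and 25.4% were lower. The median log2 fold change of the *prp* and *cwf* genes was -0.03, and its sign turned to 0.02 with library size alone and to 0.05 with only coding genes in the fit. The median size of the change was 0.23, against 0.29 over all coding genes. In 19 of the 41 genes (46.3%) the change was below 0.2 in size on the log2 scale, as it was in 35.8% of all coding genes. The change reached 1.5-fold with a call in 3 genes, *cwf3*, *cwf19* and *cwf24* (7.32%, against 19.9% of all coding genes). *cwf3* met the study's threshold of a 2-fold change with a mean of at least 100 in the higher strain, where 3.35% of all coding genes were higher and 2.55% were lower. *cwf19* lay just inside 2-fold at a log2 fold change of -0.99, and passed it with the replicate block (-1.01), without wild-type replicate 3 (-1.03) and with *spx1*Δ replicate 1 left out (-1.14). The 41 genes together took 0.377%, 0.433% and 0.409% of the counts in *spx1*Δ replicates 1, 2 and 3, against 0.376%, 0.369% and 0.377% in wild-type replicates 1, 2 and 3. *cwf3* alone gave 2797, 8531 and 5458 of the 93181, 93718 and 85707 unscaled counts of the 41 genes in the *spx1*Δ replicates. In the wild-type replicates it gave 1366, 1043 and 1302 of 57409, 42576 and 54878.

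**Figure D1:**
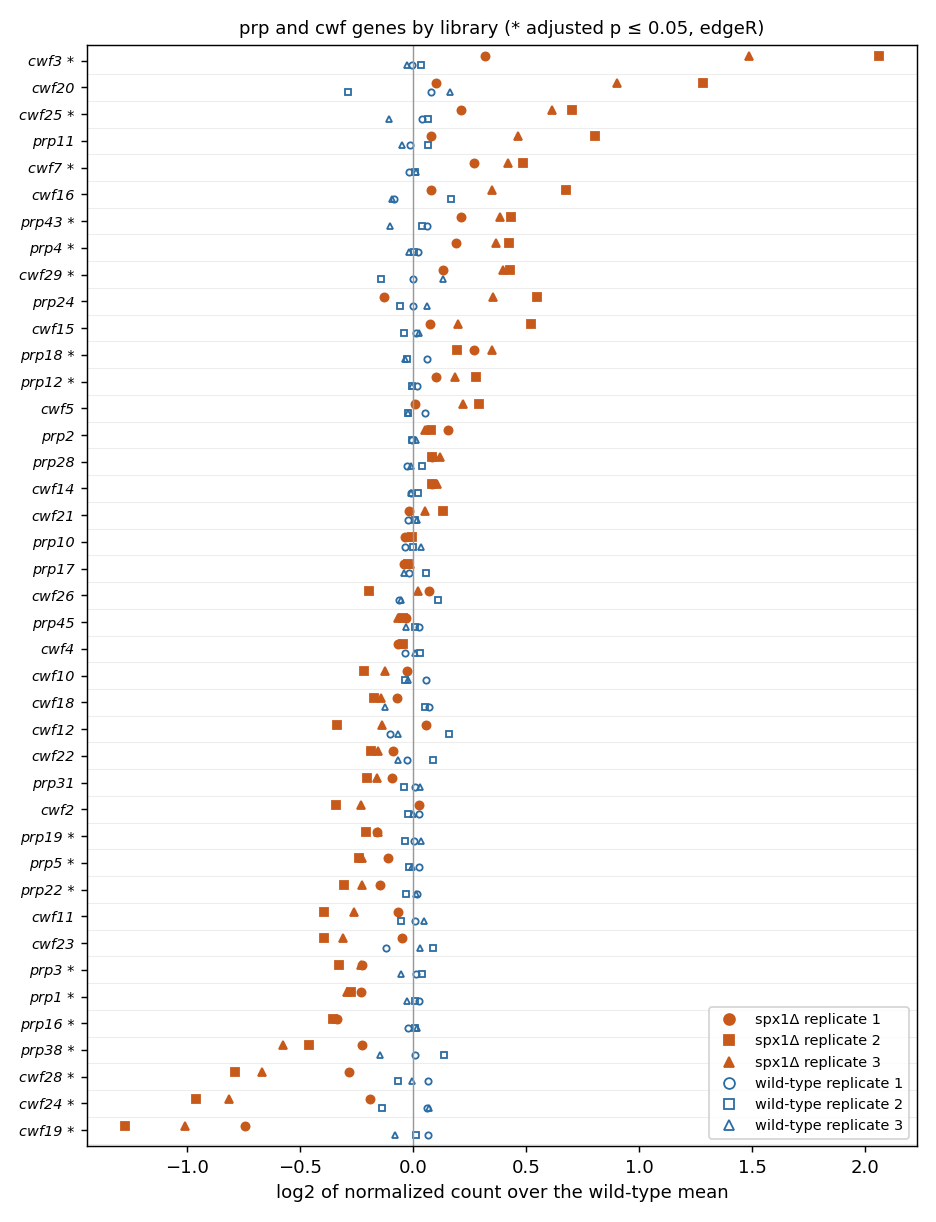
Log2 ratio of the normalized count in each library to the wild-type mean (x axis) for the 41 *prp* and *cwf* genes (y axis, ordered by log2 fold change), with *spx1*Δ libraries as filled and wild-type libraries as open symbols; asterisks mark genes called by edgeR. *cwf3* and *cwf19* lie at the ends with log2 fold changes of 1.45 and -0.99, and 19 of the 41 genes changed by less than 0.2. *spx1*Δ replicate 1 lies nearest to wild type for 16 of the 18 genes called, as it does for 2221 of the 2563 coding genes called.

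The split between rises and falls was 8 and 10 with TMM and with the size factors of DESeq2, and 11 and 8 with library size alone. It was 12 and 5 when only coding genes entered the library sizes, the fit and the adjustment, where 23.9% of all coding genes were lower, against 12.2% of the *prp* and *cwf* genes. All 18 genes called kept their direction in each of the 13 alternative settings, and 4 of them, *cwf19*, *cwf7*, *prp16* and *prp1*, were called in every one. Of the 23 genes that did not pass, 16 were called in at least 1 of these settings, *prp11* most often. *prp22*, *prp38*, *prp5*, *prp19* and *cwf24* were not called in the fit of coding genes, with adjusted p of 0.0506 to 0.119. Between 5 and 6 of the 41 genes were called when 1 wild-type library was left out. Of all coding genes, 10.3% to 11.6% were higher and 12.2% to 14.8% were lower in these fits. The number of *prp* and *cwf* genes called was 31, 11 and 5 with *spx1*Δ replicates 1, 2 and 3 left out. In those fits, 30.2%, 16.0% and 10.4% of all coding genes were higher and 45.6%, 20.9% and 10.8% were lower. *prp3* and *prp43* kept their calls in 5 and 4 of the 6 fits with a library left out, and *cwf3*, *cwf25*, *cwf28*, *prp4* and *prp18* in 2, with a highest adjusted p of 0.0626 to 0.0964. The other 7, *prp5*, *prp12*, *prp19*, *prp22*, *prp38*, *cwf24* and *cwf29*, were called in 1 of the 6, the fit without *spx1*Δ replicate 1, with a highest adjusted p of 0.0835 to 0.137.

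Among the 11 genes whose product is given as part of the Prp19 complex, 2 were higher (*cwf3* and *cwf7*, 18.2%), 2 were lower (*prp5* and *prp19*, 18.2%) and 7 did not pass. For this set and the smaller sets below, the shares over all coding genes were 21.2% higher and 30.2% lower. *cwf3* (SPBC211.02c), the ortholog of budding yeast Syf1, encodes a scaffold subunit made of repeated helices. Its normalized counts were 2071, 6919 and 4643 in *spx1*Δ cells, against 1651, 1700.4 and 1628 in wild-type cells. Every *spx1*Δ library thus lay above every wild-type library, but replicate 1 stood only 0.32 above the wild-type mean on the log2 scale, while replicates 2 and 3 stood 2.06 and 1.48 above it. The means were 4544 ± 2426 in *spx1*Δ cells and 1659.7 ± 37.1 in wild-type cells (SD, n = 3 each), with a log2 fold change of 1.45 (SE 0.40, adjusted p = 0.0231, edgeR). Leaving out *spx1*Δ replicate 2 gave a change of 1.02, and leaving out replicate 1 gave 1.80. The adjusted p was 0.0768, 0.0755 and 0.0800 without wild-type replicates 1, 2 and 3, 0.0692 without *spx1*Δ replicate 3 and 0.0544 by limma-voom. In the reference annotation (assembly ASM294v3), *cwf3* shares exon bases with *rsm10*, a gene on the other strand for a mitochondrial ribosomal protein. *rsm10* had a log2 fold change of -0.38 (adjusted p = 0.105), opposite in sign to that of *cwf3*.

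*cwf7* (SPBC28F2.04c), the ortholog of human SPF27, had the steadier rise of the pair. Its counts were 2442, 2837 and 2707 in *spx1*Δ cells and 1996, 2033 and 2044 in wild-type cells, with no overlap (log2 fold change 0.39, SE 0.07, adjusted p = 0.00659, edgeR). *prp19* (SPAC29A4.08c) encodes the ubiquitin ligase that gives the complex its name. It was slightly lower, at 3130.0, 3029 and 3143 in *spx1*Δ cells and 3505, 3414 and 3587 in wild-type cells (log2 fold change -0.18, SE 0.05, adjusted p = 0.0247). *prp5* (SPBP22H7.07) encodes a WD repeat subunit, and despite its name is not the ortholog of the budding yeast helicase Prp5. Its counts were 2209.8, 2019 and 2038 in *spx1*Δ cells and 2426, 2356 and 2379 in wild-type cells (log2 fold change -0.19, SE 0.06, adjusted p = 0.0311). For both genes the *spx1*Δ values lay below all wild-type values, by margins that are small beside those of *cwf3*.

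The other 7 genes of the Prp19 complex did not pass. Counts of *cwf4* (SPBC31F10.11c), for a second subunit of repeated helices, were 2065, 2099 and 2085 in *spx1*Δ cells and 2111, 2206 and 2174 in wild-type cells (log2 fold change -0.05, SE 0.05). *prp45* (SPCC188.11), the ortholog of human SKIP, had 1507, 1492 and 1471 in *spx1*Δ cells and 1567, 1552 and 1507 in wild-type cells (log2 fold change -0.05, SE 0.05). *prp17* (SPBC6B1.10), for a WD repeat protein that acts in the second step, had 2631, 2663 and 2677 in *spx1*Δ cells and 2674, 2819 and 2631 in wild-type cells (log2 fold change -0.03, SE 0.05). In these 3 genes all 6 libraries lay close together. *cwf2* and *cwf5* encode RNA-binding subunits. *cwf2* (SPAC3A12.11c) had 1672, 1295 and 1399 in *spx1*Δ cells and 1671, 1616 and 1643 in wild-type cells (log2 fold change -0.17, SE 0.10, adjusted p = 0.175). *cwf5* (SPCC550.02c) had 862, 1049 and 999.6 in *spx1*Δ cells and 889, 843 and 843 in wild-type cells (log2 fold change 0.18, SE 0.09, adjusted p = 0.140). In both, *spx1*Δ replicate 1 lay at or within the wild-type values and replicates 2 and 3 lay outside them, on the low side for *cwf2* and on the high side for *cwf5*. *cwf12* (SPBC32F12.05c), for a subunit of the complex, had 809, 617 and 708 in *spx1*Δ cells and 726, 869 and 743 in wild-type cells (log2 fold change -0.13, SE 0.13). *cwf15* (SPBC337.06c), for another subunit, had 919, 1251 and 1000.4 in *spx1*Δ cells and 881, 848 and 889 in wild-type cells (log2 fold change 0.28, SE 0.12, adjusted p = 0.0942). The groups overlapped for *cwf12* but not for *cwf15*, where replicate 2 stood apart as the highest.

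Of the 7 genes described as complexed with Cdc5, 1 was higher (*cwf25*), 1 was lower (*cwf19*) and 5 did not pass. *cwf19* (SPAC30D11.09) had the largest fall of all 41 genes. Its counts were 624, 432 and 519.8 in *spx1*Δ cells, against 1094, 1055 and 990.3 in wild-type cells. All 3 *spx1*Δ libraries, replicate 1 included, lay far below the lowest wild-type library. The log2 fold change was -0.99 (SE 0.14, adjusted p = 0.00410, edgeR), and it ranged over -1.14 to -0.87 when each library in turn was left out, with a call each time. *cwf25* (SPBC146.05c), the relative of a budding yeast protein of the first step, rose. It had 1267, 1784 and 1677 in *spx1*Δ cells and 1125, 1144 and 1017 in wild-type cells (log2 fold change 0.52, SE 0.14, adjusted p = 0.0199). Its adjusted p was 0.0586 to 0.0772 without 1 wild-type library or with *spx1*Δ replicate 3 left out.

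**Figure D2:**
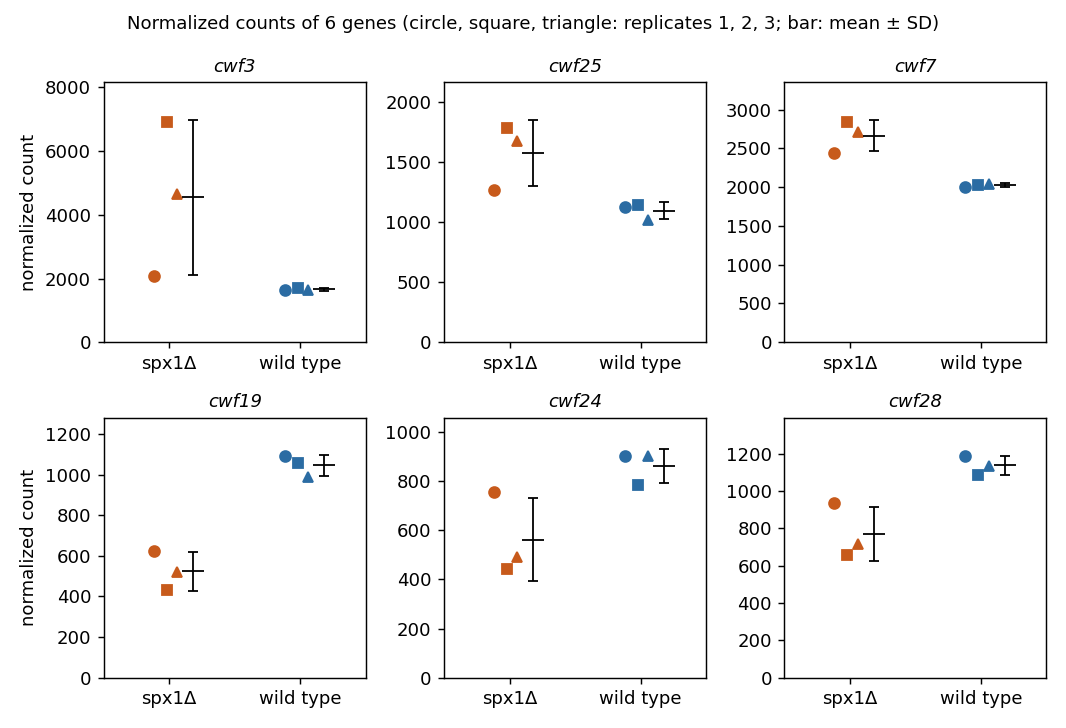
Normalized counts (y axis, from 0) of *cwf3*, *cwf25*, *cwf7*, *cwf19*, *cwf24* and *cwf28* in the 3 *spx1*Δ and the 3 wild-type libraries, with the mean and SD as a bar beside the points. For *cwf3* the *spx1*Δ points run between 2071 and 6919 above wild-type points of 1628 to 1700.4, and for *cwf19* they lie at 432 to 624, below wild-type points of 990.3 to 1094.

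Of the 5 others complexed with Cdc5, *cwf20* (SPCC4B3.14) had the second-largest positive change of all 41 genes but few counts. It had 135, 306 and 235 in *spx1*Δ cells and 133, 103 and 141 in wild-type cells (log2 fold change 0.84, SE 0.31, adjusted p = 0.0596). *spx1*Δ replicate 1 lay within the wild-type values and replicates 2 and 3 above them. By DESeq2, *cwf20* was called (adjusted p = 0.0299). *cwf11* (SPBC646.02) encodes the fission yeast relative of Aquarius, an intron-binding protein. It had 1521, 1213 and 1329 in *spx1*Δ cells and 1601, 1534 and 1644 in wild-type cells (log2 fold change -0.23, SE 0.09, adjusted p = 0.0708), with all *spx1*Δ values below the wild-type ones. *cwf26* (SPCC1620.10), for the relative of budding yeast Bud13, had 789, 658 and 765 in *spx1*Δ cells and 720.2, 812 and 726 in wild-type cells (log2 fold change -0.03, SE 0.10). *cwf18* (SPCP1E11.07c) had 499.7, 467 and 476 in *spx1*Δ cells and 552, 545 and 483 in wild-type cells (log2 fold change -0.13, SE 0.09). *cwf21* (SPAC4A8.09c) had 921, 1023 and 969 in *spx1*Δ cells and 918, 939 and 945 in wild-type cells (log2 fold change 0.06, SE 0.07). In these last 3 genes the *spx1*Δ and wild-type values overlapped.

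Of the 5 genes for RNA helicases, which drive the rearrangements of the spliceosome with ATP, 1 was higher (*prp43*), 2 were lower (*prp16* and *prp22*) and 2 did not pass. *prp16* (SPBC1711.17) encodes the helicase that remodels the spliceosome between the chemical steps. Its counts were 951, 940.0 and 947 in *spx1*Δ cells and 1181, 1206 and 1215 in wild-type cells (log2 fold change -0.34, SE 0.06, adjusted p = 0.00606, edgeR). The fall was of like size in each *spx1*Δ library, -0.34, -0.35 and -0.34 on the log2 scale, in contrast to the uneven changes of *cwf3* and *cwf24*. *prp22* (SPAC10F6.02c) encodes the helicase that releases the spliced mRNA. It had 2066, 1849 and 1957 in *spx1*Δ cells and 2316, 2237 and 2309 in wild-type cells (log2 fold change -0.22, SE 0.06, adjusted p = 0.0222). *prp43* (SPBC16H5.10c), for the helicase that takes the spliceosome apart and also serves in ribosome assembly, rose. It had 4395, 5129 and 4956 in *spx1*Δ cells and 3965, 3899.8 and 3532 in wild-type cells, without overlap (log2 fold change 0.35, SE 0.08, adjusted p = 0.0141).

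The helicase genes that did not pass were *prp11* and *prp28*. *prp11* (SPCC10H11.01), which despite its name is the ortholog of budding yeast Prp5, encodes a helicase of branch site recognition. It had 1434, 2375 and 1875 in *spx1*Δ cells and 1347, 1422 and 1312 in wild-type cells (log2 fold change 0.48, SE 0.17, adjusted p = 0.0559). The groups did not overlap, but replicate 1 was just above the highest wild-type value. *prp11* was called in 5 of the 13 alternative settings, with an adjusted p of 0.0275 by DESeq2. *prp28* (SPCC63.11), for the helicase that displaces U1 from the 5′ splice site, had 2186, 2182 and 2239.9 in *spx1*Δ cells and 2022, 2118 and 2051 in wild-type cells (log2 fold change 0.09, SE 0.05, adjusted p = 0.148). In the reference annotation *prp11* neighbors *cwf23* on the same strand, and *cwf22* neighbors *cwf24* likewise. Neither neighboring pair showed a shared change that passed: *prp11* and *cwf23* had log2 fold changes of 0.48 and -0.25, and *cwf22* and *cwf24* of -0.14 and -0.62.

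Of the 5 genes of the U4/U6 x U5 tri-snRNP and of the kinase Prp4 that acts on it, 3 were lower and 1 was higher, where 30.2% of all coding genes were lower. Of the 5 tri-snRNP genes with other names, 3 were higher (*snu66*, *rna4* and *snp27*, with log2 fold changes of 1.12, 0.79 and 0.54), *dim1* was lower (-0.64) and *snu23* did not pass (0.09). *prp1* (SPBC6B1.07), the ortholog of budding yeast Prp6, bridges U5 to U4/U6. Its counts were 1911, 1850.0 and 1828 in *spx1*Δ cells and 2280.2, 2251 and 2196 in wild-type cells (log2 fold change -0.27, SE 0.05, adjusted p = 0.00852, edgeR). *prp3* (SPAC29E6.02), for a U4/U6 protein, had 2269.8, 2114 and 2263 in *spx1*Δ cells and 2681, 2728 and 2561 in wild-type cells (log2 fold change -0.26, SE 0.06, adjusted p = 0.0120). Both falls were small but even over the 3 *spx1*Δ libraries. *prp38* (SPBC19C2.08), whose budding yeast ortholog is needed to activate the spliceosome, had the larger fall at lower counts. It had 334, 284 and 262 in *spx1*Δ cells and 393, 429 and 353 in wild-type cells (log2 fold change -0.41, SE 0.14, adjusted p = 0.0401). *prp31* (SPBC119.13c), for another U4/U6 protein, did not pass, at 1222, 1129 and 1165 in *spx1*Δ cells and 1311, 1268 and 1330.3 in wild-type cells (log2 fold change -0.15, SE 0.06, adjusted p = 0.0753). The kinase gene *prp4* (SPCC777.14) went the other way. It had 1399, 1646 and 1583 in *spx1*Δ cells and 1243, 1228 and 1210.3 in wild-type cells (log2 fold change 0.33, SE 0.08, adjusted p = 0.0145). With 5 genes, these are counts and were not set against other genes by a test.

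The 3 genes that act with U2 were nearly level. *prp2* (SPBC146.07) encodes the large subunit of U2AF, which binds the pyrimidine-rich stretch before the 3′ splice site. It had 3730.4, 3541 and 3471 in *spx1*Δ cells and 3341, 3331 and 3376 in wild-type cells (log2 fold change 0.10, SE 0.05, adjusted p = 0.143). *prp10* (SPAC27F1.09c), for the largest subunit of SF3b, had 4063, 4155 and 4106 in *spx1*Δ cells and 4071, 4164 and 4276 in wild-type cells (log2 fold change -0.02, SE 0.05). *prp12* (SPAPJ698.03c), for another SF3b subunit, was called with a small rise, at 2239, 2532 and 2373 in *spx1*Δ cells and 2111, 2079 and 2078 in wild-type cells (log2 fold change 0.19, SE 0.06, adjusted p = 0.0403, edgeR). The product of *prp28* names U5 as well, but that gene is placed with the helicases. Of the other pair of U5 genes, *cwf10* (SPBC215.12), for the GTPase known as Snu114 in budding yeast, did not pass. It had 2507, 2197 and 2343 in *spx1*Δ cells and 2662, 2494 and 2517 in wild-type cells (log2 fold change -0.12, SE 0.07, adjusted p = 0.156). *prp18* (SPCC126.14), for a factor of the second step, rose with no overlap. It had 968, 919.7 and 1024 in *spx1*Δ cells and 839.8, 789 and 784 in wild-type cells (log2 fold change 0.27, SE 0.07, adjusted p = 0.0231). The 3 second-step genes therefore split, with *prp16* lower, *prp18* higher and *prp17* not passing.

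Among the 8 remaining genes, *cwf29* was higher, *cwf24* and *cwf28* were lower and 5 did not pass. *cwf24* (SPBC13E7.02) encodes a protein that joins a ubiquitin ligase part to an acetyltransferase part. Its counts were 754, 443 and 490.0 in *spx1*Δ cells, against 900.2, 783 and 904 in wild-type cells (log2 fold change -0.62, SE 0.21, adjusted p = 0.0432, edgeR). Replicate 1 was just under the lowest wild-type value, and replicates 2 and 3 stood well below it. The change was -0.89 without *spx1*Δ replicate 1. The adjusted p was 0.0532 with only coding genes in the fit, 0.118, 0.0813 and 0.121 without wild-type replicates 1, 2 and 3, and 0.0927 and 0.137 without *spx1*Δ replicates 2 and 3. *cwf28* (SPBC3B9.02c), for a splicing factor, had 935, 659 and 715 in *spx1*Δ cells and 1190.2, 1086 and 1134 in wild-type cells (log2 fold change -0.56, SE 0.14, adjusted p = 0.0170). *cwf29* (SPBC887.05c), for an RNA-binding protein, had 1999, 2456 and 2406 in *spx1*Δ cells and 1823, 1653 and 2003 in wild-type cells (log2 fold change 0.32, SE 0.11, adjusted p = 0.0417). It was called although the lowest *spx1*Δ value lay below the highest wild-type value.

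The 5 others of this kind spanned changes of -0.25 to 0.39. *cwf16* (SPAC9.13c), for a splicing factor, had 899, 1358 and 1082 in *spx1*Δ cells and 802, 954 and 798 in wild-type cells (log2 fold change 0.39, SE 0.16, adjusted p = 0.0814). *prp24* (SPBC1861.04c), for an RNA-binding protein that in budding yeast pairs U4 with U6, had 1098, 1755 and 1536 in *spx1*Δ cells and 1199.9, 1154 and 1252 in wild-type cells (log2 fold change 0.28, SE 0.17, adjusted p = 0.185). In both genes replicate 1 lay below the highest wild-type value, and replicates 2 and 3 above it. *cwf14* (SPBC24C6.11), for the G10 protein known as Bud31 in other species, had 3003, 3005 and 3051 in *spx1*Δ cells and 2814, 2881 and 2813 in wild-type cells (log2 fold change 0.09, SE 0.05, adjusted p = 0.134). *cwf22* (SPBC13E7.01), whose human ortholog links splicing to the exon junction complex, had 2240.2, 2096 and 2142 in *spx1*Δ cells and 2345, 2538 and 2278 in wild-type cells (log2 fold change -0.14, SE 0.06, adjusted p = 0.0911). *cwf23* (SPCC10H11.02), for a protein with a DnaJ domain, had 303, 239 and 253 in *spx1*Δ cells and 289, 334 and 320.1 in wild-type cells (log2 fold change -0.25, SE 0.13, adjusted p = 0.156). The groups did not overlap for *cwf14* and *cwf22*, by small margins, and they overlapped for *cwf23*.

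The count table holds 8 antisense RNAs named for these genes, those over *prp1*, *prp2*, *prp22*, *cwf4*, *cwf10*, *cwf19*, *cwf20* and *cwf28*, and 6 of them rose and 2 did not pass. Their median log2 fold change was 1.76. The rise of antisense RNAs was general in *spx1*Δ cells: of 561 antisense RNAs tested, 58.8% were called higher and 3.21% lower. The largest change was that of *prp1-antisense-1* (SPNCRNA.1539), which had normalized counts of 92.5, 456 and 306 in *spx1*Δ cells, against 25.4, 14.7 and 22.5 in wild-type cells (log2 fold change 3.74, SE 0.65, adjusted p = 0.00655, edgeR). *cwf28-antisense-1* (SPNCRNA.1653), annotated as a possible alternative UTR, had 187, 491 and 401 in *spx1*Δ cells and 67.7, 34.2 and 53.8 in wild-type cells (log2 fold change 2.77, SE 0.43, adjusted p = 0.00495). In both, *spx1*Δ replicate 1 stood lowest of the mutant libraries and still above every wild-type one.

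*prp22-antisense-1* (SPNCRNA.724) had 799.5, 1517 and 1390.0 in *spx1*Δ cells and 262, 238 and 230.1 in wild-type cells (log2 fold change 2.34, SE 0.25, adjusted p = 0.00239, edgeR). *cwf19-antisense-1* (SPNCRNA.712) was the most counted of the 8, with 1131, 1649.7 and 1533 in *spx1*Δ cells and 602, 605 and 664 in wild-type cells (log2 fold change 1.20, SE 0.15, adjusted p = 0.00344). These 4 RNAs met the 2-fold threshold with a mean of at least 100, as did 32.4% of all antisense RNAs on the higher side and 0.891% on the lower, and each was called in all 12 alternative settings that could be run for it. *prp2-antisense-1* (SPNCRNA.1405) had few counts, 19.2, 61.6 and 34.9 in *spx1*Δ cells and 9.67, 8.15 and 5.0 in wild-type cells (log2 fold change 2.32, SE 0.55, adjusted p = 0.0154). *cwf4-antisense-1* (SPNCRNA.1637) had 43.7, 45.4 and 53.6 in *spx1*Δ cells and 29.0, 29.3 and 35.0 in wild-type cells (log2 fold change 0.61, SE 0.20, adjusted p = 0.0388), but it was called in 3 of 12 alternative settings, with an adjusted p of 0.114 by DESeq2. *prp2-antisense-1* was called in 9 of the 12, and its adjusted p was 0.0507, 0.0552 and 0.0646 without wild-type replicates 1, 2 and 3. Those that did not pass were *cwf20-antisense-1* (log2 fold change 0.50, adjusted p = 0.0585) and *cwf10-antisense-1* (log2 fold change 0.23, adjusted p = 0.625).

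**Figure D3:**
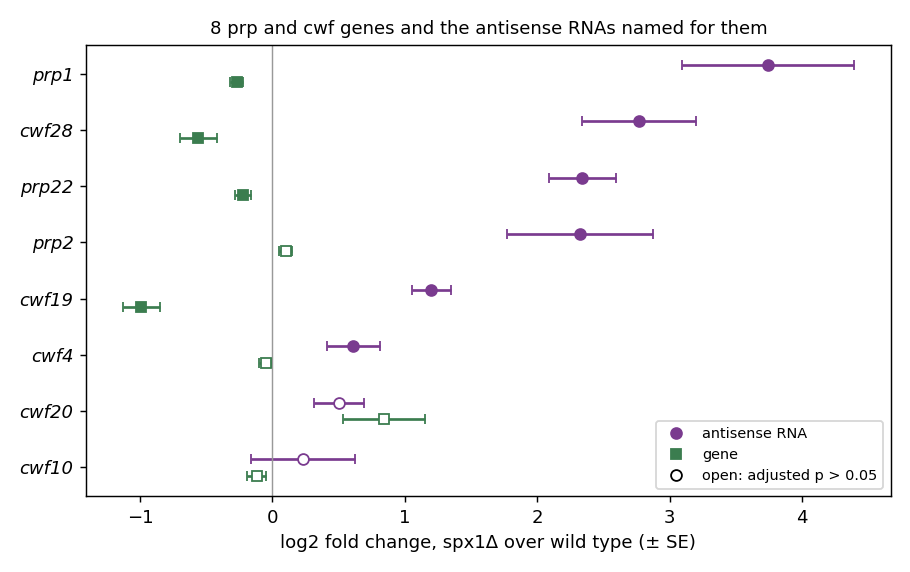
Log2 fold change of *spx1*Δ over wild type, with its SE (x axis), for the 8 antisense RNAs named for *prp* and *cwf* genes (circles) and for the genes themselves (squares); filled symbols passed an adjusted p of 0.05. The RNAs over *prp1*, *cwf28*, *prp22* and *cwf19* rose by 3.74, 2.77, 2.34 and 1.20 on this scale while the genes had changes of -0.27, -0.56, -0.22 and -0.99.

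Of the 6 genes whose antisense RNA rose, 4 were lower (*prp1*, *prp22*, *cwf19* and *cwf28*) and 2, *prp2* and *cwf4*, did not pass. Of the 33 *prp* and *cwf* genes with no antisense RNA of their name, 6 were lower and 8 were higher. Over the whole table, 36.1% of the 319 coding genes with a risen antisense RNA of their name were lower and 23.8% were higher, against 30.1% and 20.6% of the 4454 with no tested antisense RNA of their name. Within the group the log2 fold changes did not run in parallel. The gene with the largest antisense rise, *prp1*, had a smaller fall than *cwf19*, whose antisense RNA rose least of the 4. By amount this pair ranked the other way. In *spx1*Δ replicates 1, 2 and 3, antisense counts were 181%, 382% and 295% of sense counts for *cwf19*, and 4.84%, 24.6% and 16.8% for *prp1*. *prp22*, with the smallest fall of the 4, had a higher percentage than *cwf28* in each of these libraries. A fall of the gene itself also raises this percentage. In the reference annotation, 2 further noncoding RNAs without such a name lie over a *prp* or *cwf* gene on the other strand, and they were picked out after their values were seen. SPNCRNA.1491 over *prp16* had a log2 fold change of 1.85 (adjusted p = 0.0238, edgeR), and *prp16* was lower. SPNCRNA.1212 over *prp4* had one of 0.63 (adjusted p = 0.0141), and *prp4* was higher. The part of the antisense RNAs in the levels of these genes was not tested.

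The library kit was strand-specific, but whether HTSeq was run with strand is not stated in the labels or methods. Counted without strand, reads of a gene and of an RNA antisense to it cannot be told apart. In the reference annotation, 74 of the 635 antisense RNAs lie wholly within the exons of 1 coding gene on the other strand, and 61 of these 74 had a count above 0 in all 6 libraries. The RNAs named for *prp22*, *cwf19* and *cwf20* cover 100% of the exon bases of these genes. Each of these genes and RNAs still had counts in all 6 libraries. Whether strand was used in counting was not tested. Of the 41 *prp* and *cwf* genes, 20 share exon bases with a tested coding gene on the other strand. In 5 of these pairs both genes were called, 3 in the same direction (*prp18* with *sap18*, *prp16* with *cdc73* and *cwf28* with *fes1*) and 2 in opposite directions (*cwf25* with *erv2* and *prp19* with *srb6*). Of all 4986 coding genes tested, 21.2% were called higher and 30.2% lower. The shared bases were 88.6% of the exon bases of *prp19*, but 1.53% for *cwf25*, 3.07% for *prp16*, 5.39% for *cwf28* and 6.4% for *prp18*.

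A list of splicing genes with other names holds 84 protein-coding genes whose product names splicing, the spliceosome, an snRNP or the Prp19 complex, and it takes in 4 subunits of the tRNA-splicing endonuclease. Of the 83 tested, 22 were higher (26.5%), 21 were lower (25.3%) and 40 did not pass, and the median log2 fold change was -0.04. The largest rise was that of SPAPB8E5.10, which the list takes in only because its own splicing is described as specific to meiosis. SPAPB8E5.10 had 107, 526 and 339 in *spx1*Δ cells and 26.6, 32.6 and 45.0 in wild-type cells (log2 fold change 3.21, SE 0.62, adjusted p = 0.00872, edgeR, and 0.0523 by limma-voom). The tri-snRNP gene *snu66* had 1641, 2917 and 2670.4 in *spx1*Δ cells and 1127, 1083 and 1112 in wild-type cells (log2 fold change 1.12, SE 0.21, adjusted p = 0.00769), so it rose while *prp1*, *prp3* and *prp38* fell. SPAC683.02c, for a zinc finger protein, and the splicing factor gene *tls1* rose on the log2 scale by 1.24 (adjusted p = 0.00235) and 1.10 (adjusted p = 0.00885).

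The largest falls among these other genes were those of *cxr1*, *spf31*, *dre4* and *ntr2*. The splicing factor gene *cxr1* had 463, 233 and 257 in *spx1*Δ cells and 911, 903 and 969 in wild-type cells (log2 fold change -1.54, SE 0.26, adjusted p = 0.00609, edgeR). *spf31*, for a DnaJ protein, had a log2 fold change of -1.06 (adjusted p = 0.00911), *dre4*, for a splicing associated factor, of -0.91 (adjusted p = 0.0119), and *ntr2*, for a factor of spliceosome disassembly, of -0.76 (adjusted p = 0.00605). The adjusted p of *dre4* was 0.0512 with *spx1*Δ replicate 3 left out. A called change of at least 1.5-fold was found in 7.32% of the *prp* and *cwf* genes, against 22.9% of these other splicing genes, a difference that was not tested. The snRNAs themselves are poorly held in poly(A)+ libraries: of the 5 snRNA genes counted, 3 passed the filter, and the U5 gene *snu5*, at 110.3, 255 and 177 in *spx1*Δ cells and 38.7, 42.4 and 56.3 in wild-type cells, rose (log2 fold change 1.97, SE 0.35, adjusted p = 0.00678). The U1 and U2 genes *snu1* and *snu2* had log2 fold changes of 1.03 and 0.18 (adjusted p = 0.101 and 0.637).

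**Figure D4:**
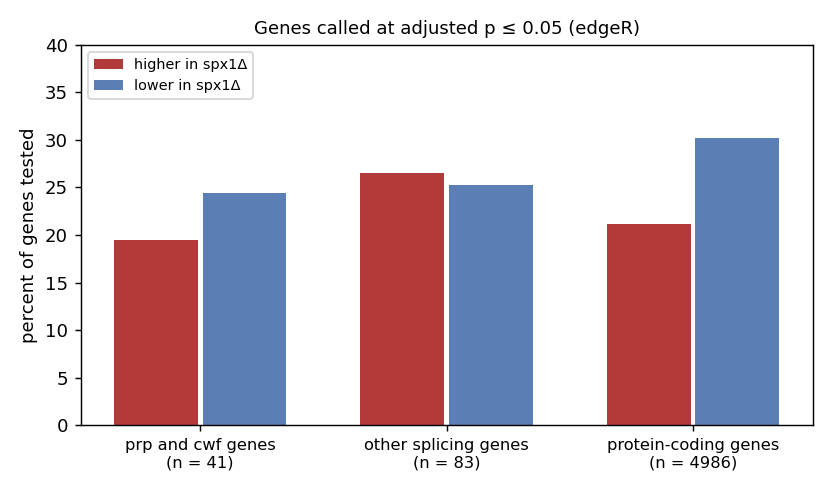
Percent of genes tested (y axis) that edgeR called higher or lower in *spx1*Δ cells, for 41 *prp* and *cwf* genes, 83 other splicing genes and 4986 protein-coding genes. The bars of the *prp* and *cwf* genes, 19.5% higher and 24.4% lower, stand beside those of all coding genes, 21.2% and 30.2%.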

How the data were processed

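Counts were analysed for 6 RNA-seq libraries of poly(A)+ RNA. The authors mapped paired reads of 51 bases to build ASM294v2 with HISAT2 2.1.0, used SAMtools for the alignments and counted reads over exons with HTSeq 0.10.0. The deposited count table gives these whole-number counts, unscaled. A second deposited table was used only for gene names, products and types. Its other columns hold the authors' DESeq2 comparison: a signal (the mean of scaled counts per strain), a log2 fold change, a score (the Wald statistic of the authors) and a p-value, deposited with and without adjustment. None of these was used. No source used here gives a version for SAMtools or for the DESeq2 run.

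The table holds 6987 rows; 1 repeated ID at 0 was dropped, and 6833 of the other 6986 IDs matched the reference annotation by locus tag, including all 41 genes. That annotation is of assembly ASM294v3, a build other than the authors', so it served only for neighbors and overlaps, and no coordinates or gene lengths were taken from it. Levels are therefore not compared between genes, and the ratios of antisense to sense counts are not scaled by length. R 4.3.3 and edgeR 4.0.16 were used, with TMM scaling, filterByExpr, glmQLFit and glmQLFTest for the 2 strains without further terms, and Benjamini-Hochberg adjustment over 6127 IDs. The SE was taken as the size of the log2 fold change over the root of F. Log2 differences of single libraries from the wild-type mean used an offset of 0.5. Nothing beyond the label of biological replicate says how the cultures were separated, so p-values measure the spread between these libraries. The fit was tested on simulated data. Alternatives were other scaling, no filter, DESeq2 1.42.0, limma-voom (limma 3.58.1), only coding genes, the replicate number as a block and each library left out.

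The genes and lists were chosen with earlier results of these data known. Genes were to be given in full where they were called with at least a 1.5-fold change, with antisense RNAs that changed at least 2-fold and the 4 largest changes per direction among other splicing genes; since only 3 genes met the first condition, library values of all 41 genes are printed. Roles were taken from the deposited products, and the rest from general knowledge.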

Additional observations from a re-analysis of the deposited data

How the results depend on the processing

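No gene called changed direction in any setting. Reversed signs occurred only among genes that did not pass: *prp10* (0.03 with library size only, 0.06 with only coding genes, -0.04 to 0.00 with 1 library left out), *prp17* (0.02 and 0.05 in the first 2 of these settings), *cwf26* (0.02 and 0.05 likewise, and -0.08 to 0.05 with 1 library left out), *cwf4* (0.02) and *prp45* (0.03), the last pair with only coding genes. The count of higher *prp* and *cwf* genes was 5 by limma-voom, against 8, and 1 to 14 with 1 library left out. The count of lower genes was 5 with only coding genes in the fit, against 10, and 3 to 17 with 1 library left out. Of all coding genes, 18.4% were higher by limma-voom. With 1 library left out, 10.3% to 30.2% of them were higher and 10.8% to 45.6% were lower. For the other splicing genes, leaving out 1 library gave 8 to 29 higher and 8 to 32 lower, against 22 and 21. Counts of antisense RNAs called higher ranged over 4 to 7, against 6. The highest counts of both gene lists came without *spx1*Δ replicate 1. With the replicate block, 7 *prp* and *cwf* genes were higher and 7 lower (17.1% each), and 12 of the 18 calls remained. Of all coding genes, 18.5% were higher and 27.1% were lower in that fit. The replicate numbers mark no shared batch in the labels. Deviations of same-numbered libraries correlated at 0.10, 0.03 and 0.05 over 6127 IDs, and those of the other pairs at -0.11 to 0.07. With 3 libraries per strain, these values cannot decide whether same-numbered libraries were prepared together. The cause of these moves was not tested.

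Normalized counts below about 100, as for *prp2-antisense-1* and *cwf4-antisense-1*, carry more counting error. The same holds for the wild-type counts of *prp1-antisense-1*, *cwf28-antisense-1*, *snu5* and SPAPB8E5.10, on which their large changes rest. The greater depth of the *spx1*Δ libraries goes with strain.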
